A study of Mus musculus with 18 samples.

Results

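Liver macrophages were followed through mouse liver and liver tumours by 10 marker genes, which were taken by symbol from the 54838 genes of the deposited expression table. They comprised 5 genes of Kupffer cells, the macrophages resident in the liver sinusoids (Clec4f, Vsig4, Timd4, Cd5l and Marco), and 5 genes of macrophages in general or of macrophages recruited from blood monocytes (Adgre1, Csf1r, Trem2, Gpnmb and Ccr2). RNA sequencing covered 18 C57BL/6 samples in 6 groups of 3, all labelled with an age of 36 weeks. WT and miR-181ab1 global knockout (GKO) mice, the latter lacking the Mir181a-1 and Mir181b-1 genes in every tissue, each gave liver tumours and surrounding liver (non-tumours) after 1 intraperitoneal dose of the carcinogen diethylnitrosamine (DEN, 25 mg/kg, postnatal day 12), and normal livers without treatment. The deletion was carried from birth and by all cells, macrophages included. The labels do not tie a tumour to a non-tumour of the same mouse or say that replicates were separate mice, so p-values measure the spread between these samples.

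Kupffer cells settle in the liver before birth, renew themselves locally and clear particles, bacteria and old red cells from portal blood. When they are lost, monocytes that carry the chemokine receptor CCR2 enter the liver and can take up the same niche, and acquire the resident genes gradually, with Timd4 among the last. Macrophages of damaged or fat-laden tissue, and of tumours, are known for another set of genes that includes Trem2 and Gpnmb. Kupffer cells depend on signalling through the receptor encoded by Csf1r.

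The mature miRNAs made from the deleted genes are shown first, because they are the products of the genes that GKO mice lack, with the seed (bases 2 to 8) in capitals. Both come from the plus strand of chromosome 1 in GRCm38.p6, at chr1:137966468-137966490 and chr1:137966650-137966673, and they share the seed. The same mature miRNAs can also be made from another gene cluster, which was not deleted.
mmu-miR-181a-5p: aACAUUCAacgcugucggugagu
mmu-miR-181b-5p: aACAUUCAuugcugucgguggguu
Promoter windows of RefSeq, which span the annotated start of a gene (GRCm38.p6), were matched for Clec4f, Vsig4, Timd4, Cd5l, Marco, Trem2, Gpnmb and Ccr2. They were searched on both strands for GAGGAAGT, a core of the binding motif of the myeloid factor PU.1, and for TGCTGAC, the core of the MAF recognition element, words that do not overlap each other. The first was in none of the 8 windows and in 3.2% of all 32851 windows, and the second was in 1 window, that of Timd4, and in 4.67% of all windows. The Timd4 window (chr11:46810549-46810848, plus strand) is shown with the match, read on the opposite strand, in capitals.
Timd4 promoter: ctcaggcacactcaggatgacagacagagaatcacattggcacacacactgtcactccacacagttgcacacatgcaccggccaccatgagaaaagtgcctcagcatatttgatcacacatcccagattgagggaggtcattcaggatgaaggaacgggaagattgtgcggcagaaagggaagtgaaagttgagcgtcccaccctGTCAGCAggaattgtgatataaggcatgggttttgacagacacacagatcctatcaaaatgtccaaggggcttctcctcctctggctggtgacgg

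Levels are given in TPM (transcripts per 1000000, a level corrected for gene length), together with reads recovered from them where a gene was low. The libraries held 11925055 to 20751355 reads on genes. The hepatocyte genes Alb, Ttr, Apoa1, Serpina1a and Cps1 summed to 60043 to 93308 TPM in the 12 non-tumours and normal livers and to 173315 to 207776 TPM in the 6 tumours. The deleted Mir181a-1 and Mir181b-1 were listed at 0 in 17 and 18 samples, respectively, with 1 read of Mir181a-1 in GKO tumour 3, so these libraries of long RNA do not show the genotype. WT non-tumour 2 stood apart from the other 5 non-tumours in the sums of several gene lists. Its 5 Kupffer genes summed to 20.8 TPM against 95.3 to 533 TPM in the others, its sinusoidal endothelial genes to 29.9 against 75.8 to 99.6 TPM, its stellate cell genes to 32.2 against 92.1 to 146 TPM, its B cell genes to 3.05 against 10.9 to 23.6 TPM and its neutrophil genes to 2.43 against 12.6 to 29.98 TPM. Its dendritic cell genes summed to 2.14 against 3.04 to 5.29 TPM. Its genes for ligands of CSF1R and CCR2 were higher instead, at 14.2 against 4.99 to 8.48 TPM. Its general macrophage genes (447 TPM, others 330 to 1261) and hepatocyte genes (69384 TPM, others 60043 to 89385) lay within the range of the others. The comparisons with non-tumours are therefore given without it as well, and why it differs was not tested. It was singled out by its low sums of several lists, the Kupffer genes among them. Larger differences of the genes of these lists without it follow from that choice and are no separate support.

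The Kupffer genes ranged widely among the non-tumours and had their lowest group means in the tumours. Clec4f, a galactose-binding lectin known as a marker of mouse Kupffer cells (ENSMUSG00000014542, chr6:83644542-83656187 on the minus strand), stood at 50.1, 36.7 and 43.3 TPM in untreated WT livers and 91.0, 31.6 and 34.9 TPM in those of GKO mice. In non-tumours it had 75.2, 5.95 and 124 TPM in WT and 196, 55.6 and 106 TPM in GKO. In tumours it had 2.79, 9.76 and 9.31 TPM in WT and 1.18, 38.0 and 8.48 TPM in GKO. All tumours but GKO tumour 2 lay under every normal liver, and the GKO tumours lay under every GKO non-tumour. The WT tumours and WT non-tumours overlapped only through WT non-tumour 2.

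Vsig4, the complement receptor CRIg with which Kupffer cells catch bacteria (ENSMUSG00000044206, chrX:96247203-96293438 on the minus strand), reached 8.63, 2.96 and 4.78 TPM in livers of untreated WT mice, and 12.0, 6.10 and 10.1 TPM in their GKO counterparts. Non-tumours had 15.3, 2.89 and 30.52 TPM in WT and 43.6, 8.08 and 19.8 TPM in GKO. Tumours had 1.47, 3.86 and 4.12 TPM in WT and 0.729, 7.33 and 2.79 TPM in GKO. As for Clec4f, the GKO tumours lay under every GKO non-tumour, and WT non-tumour 2 lay among the WT tumours.

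Timd4, a receptor for phosphatidylserine on dying cells that marks long-resident Kupffer cells (ENSMUSG00000055546, chr11:46810800-46844332 on the plus strand), had the lowest mean TPM of the 5 in every group. Normal livers contained 2.17, 0.984 and 2.03 TPM (WT) or 5.29, 1.20 and 1.35 TPM (GKO), and non-tumours 5.15, 0.113 and 6.76 TPM (WT) or 10.99, 2.64 and 6.05 TPM (GKO). Tumours had 0.167, 1.23 and 0.730 TPM in WT and 0.0498, 1.91 and 0.392 TPM in GKO, and the lowest of these values rests on 1 read. Every GKO tumour lay under every GKO non-tumour, and WT non-tumour 2, with 2 reads, lay under every WT tumour.

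Marco, a scavenger receptor for bacteria and particles (ENSMUSG00000026390, chr1:120474538-120505024 on the minus strand), gave 3.44, 2.98 and 34.1 TPM for the WT normal livers and 12.5, 2.38 and 3.54 TPM for the GKO ones. The non-tumours gave 28.3, 1.53 and 20.6 TPM in WT and 84.5, 8.69 and 13.1 TPM in GKO. The tumours gave 0.126, 2.97 and 2.24 TPM in WT and 0.787, 3.49 and 0.696 TPM in GKO. The GKO tumours lay under every GKO non-tumour, and the WT tumours and WT non-tumours overlapped through WT non-tumour 2. Among normal livers Marco was highest in WT normal liver 3, whereas the other 4 Kupffer genes were highest in GKO normal liver 1.

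Cd5l, a secreted protein of macrophages that inhibits apoptosis (ENSMUSG00000015854, chr3:87357881-87371073 on the plus strand), was measured at 25.0, 21.6 and 30.9 TPM in normal WT livers, beside 36.0, 15.7 and 19.2 TPM in normal GKO livers. In the non-tumours there were 56.8, 10.3 and 140 TPM in WT and 197, 20.3 and 63.0 TPM in GKO. In the tumours there were 6.24, 19.97 and 25.5 TPM in WT and 3.46, 39.7 and 19.0 TPM in GKO. Its tumours overlapped with non-tumours in both genotypes and with normal livers.

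**Figure D1:**
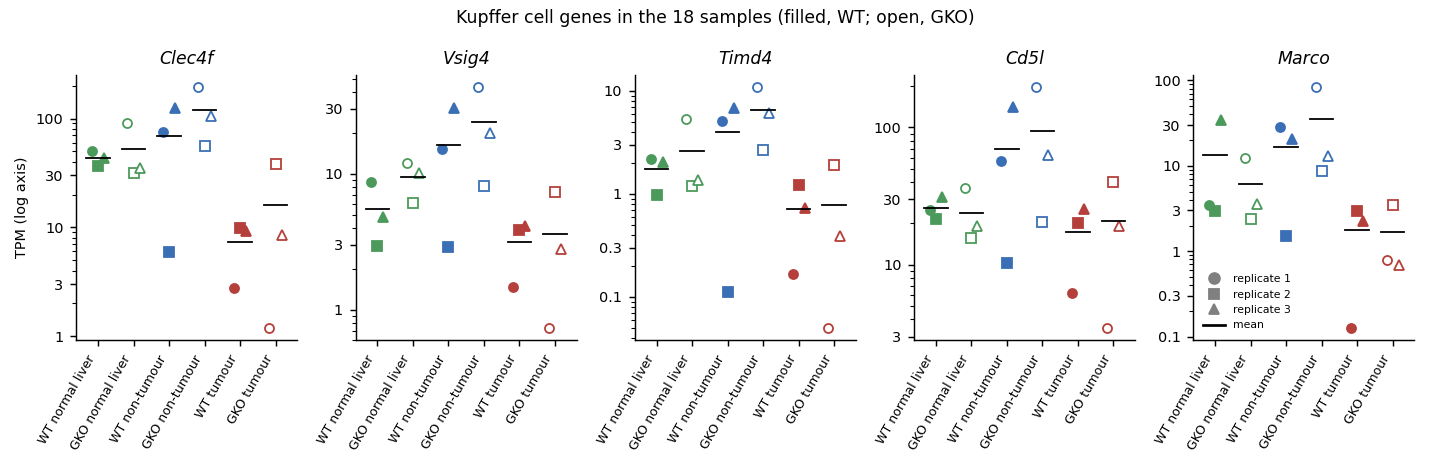
TPM on a log axis for the 5 Kupffer cell genes in each of the 18 samples, by group (green, normal liver; blue, non-tumour; red, tumour; filled, WT; open, GKO; marker shape, replicate; bar, mean of 3). In all 5 genes GKO non-tumour 1 was the highest sample and WT non-tumour 2 lay within the range of the tumours.

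Much of the order of the samples was shared by these genes. GKO non-tumour 1 was the highest of the 18 samples for all 5, GKO tumour 2 was the highest tumour for all 5, and GKO tumour 1 was the lowest sample for Clec4f, Vsig4, Timd4 and Cd5l, while WT tumour 1 was the lowest for Marco. By group mean, Clec4f, Vsig4 and Timd4 followed 1 order, GKO non-tumours, WT non-tumours, GKO normal livers, WT normal livers, GKO tumours, WT tumours. For Clec4f the means were 119 ± 71.4, 68.5 ± 59.5, 52.5 ± 33.4, 43.4 ± 6.66, 15.9 ± 19.5 and 7.28 ± 3.90 TPM (SD, n = 3), and each group overlapped with its neighbour in this order apart from WT normal livers and GKO tumours, which overlapped only through GKO tumour 2. Pearson's r of log2(TPM + 1) over the 18 samples ranged from 0.827 to 0.95 for the 10 pairs of Kupffer genes (Spearman's rho 0.837 to 0.983), from 0.718 to 0.952 after subtraction of the group means, and from 0.742 to 0.934 over 16 samples without the 2 farthest from the median of the first gene. The points share the composition and depth of their library, and the correlations are given as a description.

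Whether macrophage genes differed between tumours and surrounding liver was compared with limma on log2(TPM + 1), in each genotype and over both, with Benjamini-Hochberg adjustment over every gene whose mean reached 0.5 TPM. Over both genotypes, 4 of the 8 macrophage genes tested fell in tumours and none rose, where 20.1% of all 14106 genes passed (1719 higher and 1110 lower, 12.2% and 7.87% of those tested). With each sample centred to the same median, 1378 of 3099 passing genes were higher and the same number of macrophage genes, 4, passed. In a bulk sample, fewer macrophages and less RNA of a gene per macrophage cannot be told apart. The 3 tests share samples and are not independent of each other.

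The genes that fell were Marco, with a log2 fold change of -2.76 (standard error 0.69, limma adjusted p 0.0156), Clec4f, with -2.97 (0.79, adjusted p 0.0212), Vsig4, with -2.05 (0.56, adjusted p 0.0234), and Timd4, with -1.62 (0.49, adjusted p 0.0351). An exact permutation test over the 400 relabellings within genotype, which can reach 0.005, gave unadjusted 2-sided p-values of 0.015, 0.025, 0.025 and 0.03 for these genes. Cd5l had a difference of -1.79 (0.74, limma adjusted p 0.105, exact p 0.07). The added 1 shrinks changes of genes with few TPM, and the reads behind Timd4 and Marco in the lowest tumours were 1 and 2. The median over the 5 Kupffer genes was -2.05, beside 0.08 over all genes tested (0.20 in GKO alone and -0.02 in WT alone).

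Without WT non-tumour 2, the differences over both genotypes were -3.60 for Clec4f, -3.30 for Marco, -2.47 for Vsig4, -2.27 for Cd5l and -2.06 for Timd4, and all 5 passed (limma adjusted p 0.0016 to 0.0299), as did Csf1r. That library was the lowest non-tumour for each of the 5 Kupffer genes, so its omission enlarged their fall and these passes are no separate support. Leaving out other libraries removed calls. The count of 4 genes dropped to 1 when WT non-tumour 1 was omitted, and to 2 when WT non-tumour 3, GKO non-tumour 3 or WT tumour 1 was. In the first case Marco alone passed (limma adjusted p 0.0413), with adjusted p-values of 0.051 for Clec4f, 0.0521 for Vsig4 and 0.0804 for Timd4. The direction was negative for all 5 genes under all 22 alternatives computed.

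Within GKO, 2 of 9 genes tested fell, Timd4 with a log2 fold change of -2.06 (standard error 0.51, limma adjusted p 0.0435) and Marco with -3.25 (0.80, adjusted p 0.0424), where 11.7% of 14092 genes passed and 3.97% passed as lower. Of the 1652 genes that passed, 1092 were higher, against 777 of 1767 with median centring and 957 of 1841 with quantile normalization, and both scalings called 4 macrophage genes. Clec4f had a difference of -3.51 (0.98, adjusted p 0.0583) and Vsig4 of -2.42 (0.70, adjusted p 0.0654). B cell genes moved in the same comparison, where Cd79b fell (-1.01, limma adjusted p 0.0441), and the summed level of the B cell list was 3.21 to 8.35 TPM in GKO tumours and 10.9 to 19.5 TPM in GKO non-tumours. Their part in the result was not tested. In 5 of the 9 the tumours and non-tumours did not overlap, as in 38.3% of all genes. These were Clec4f, Vsig4, Timd4 and Marco, lower in tumours, and Ccr2, higher. An exact permutation test of 3 samples against 3 cannot go below 0.1. The count ranged from 0 to 4 as single libraries were left out, being 0 when GKO non-tumour 3, GKO tumour 1 or GKO tumour 3 was omitted, 1 for GKO non-tumour 1 or 2, and 4 for GKO tumour 2.

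Within WT, none of 8 genes passed, where 4.23% of 14003 genes did, and none had an unadjusted p under 0.05, where 19.9% of genes did. The differences were -2.43 for Clec4f (standard error 1.06, limma adjusted p 0.267), -2.26 for Marco (0.96, 0.254), -1.67 for Vsig4 (0.75, 0.274), -1.51 for Cd5l (0.94, 0.433) and -1.19 for Timd4 (0.73, 0.424). Without WT non-tumour 2, the lowest WT non-tumour for each of these genes, they were -3.71, -3.37, -2.52, -2.51 and -2.06. Of these 4 passed, all but Cd5l (limma adjusted p 0.0229 to 0.0385, and 0.0992 for Cd5l), which the choice of library favoured. Voom and limma on the recovered reads also gave 0 in WT with all libraries, and gave 4 in GKO and 3 over both genotypes. The tumour difference was not shown to differ between the genotypes. In the test of the interaction, none of the 8 macrophage genes passed, at an adjusted p under 0.05 (0.0142% of 14106 genes) or at an unadjusted one (10.5% of genes), and the estimate for Clec4f was -1.08 with a standard error of 1.61 (0.20 without WT non-tumour 2).

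**Figure D2:**
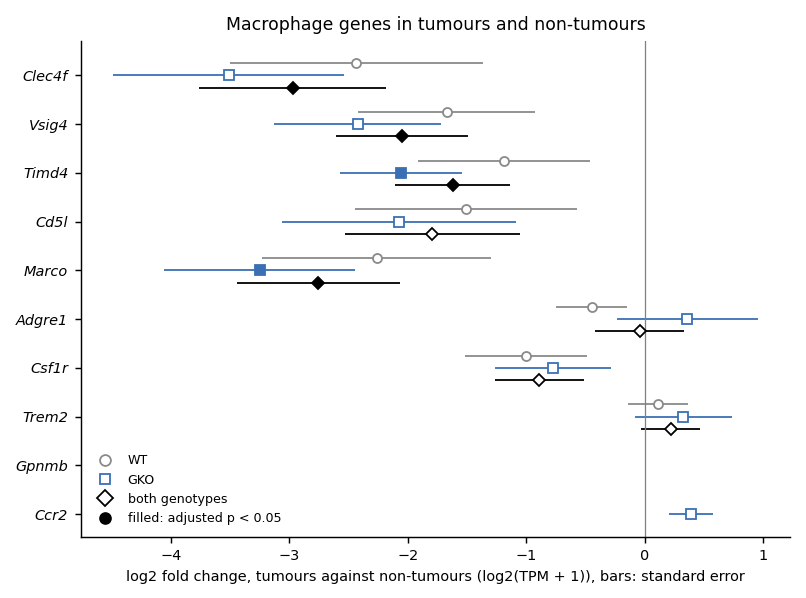
Log2 fold change of tumours against non-tumours on log2(TPM + 1), with its standard error, for each macrophage gene in WT (grey), GKO (blue) and both genotypes (black); filled symbols passed an adjusted p of 0.05, and no symbol is drawn where a gene was too low to be tested. The 5 Kupffer genes lie to the left of 0 in all 3 comparisons, between -3.51 and -1.19, while Adgre1 and Trem2 lie near 0.

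Among the general and recruited genes, Adgre1, which encodes F4/80, an adhesion receptor on most mouse macrophages (ENSMUSG00000004730, chr17:57358691-57483527 on the plus strand), amounted to 0.546, 0.973 and 0.976 TPM in the untreated WT samples and 0.680, 0.766 and 0.0363 TPM in the untreated GKO samples. Non-tumour values were 2.63, 2.00 and 4.76 TPM in WT and 8.32, 0.867 and 1.23 TPM in GKO. Tumour values were 1.68, 1.54 and 2.62 TPM in WT and 5.21, 2.34 and 2.94 TPM in GKO. All tumours lay above all normal livers, and the lowest value, in GKO normal liver 3, rests on 1 read. Between tumours and non-tumours over both genotypes Adgre1 differed by -0.05 (standard error 0.37, limma adjusted p 0.946), and the sign of this difference was positive under 6 of 22 alternatives.

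Csf1r, the receptor for the growth factors CSF1 and IL34 that keep macrophages alive (ENSMUSG00000024621, chr18:61100598-61132149 on the plus strand), was at 5.64, 3.06 and 4.22 TPM in the normal livers of WT mice and 8.47, 4.50 and 6.61 TPM in those of GKO mice. Surrounding liver had 14.6, 4.61 and 19.6 TPM in WT and 25.8, 5.59 and 12.2 TPM in GKO. The tumours themselves had 3.79, 8.15 and 4.11 TPM in WT and 5.07, 9.04 and 6.61 TPM in GKO. Tumours spanned nearly the range of the normal livers, and 4 of 6 non-tumours lay above every other sample. The difference between tumours and non-tumours over both genotypes was -0.89 (standard error 0.38, limma adjusted p 0.114, exact permutation p 0.065), and -1.13 (adjusted p 0.0344) without WT non-tumour 2. In the annotation 873 of its exonic bases also belong to Hmgxb3 on the opposite strand, and whether the counting used strand is not given in the sources used here.

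Trem2, Gpnmb and Ccr2 were near the limit of detection. Trem2, a lipid-sensing receptor of macrophages (ENSMUSG00000023992, chr17:48346401-48354147 on the plus strand), had 0 to 0.717 TPM in normal livers, 0.197 to 1.03 TPM in non-tumours and 0.252 to 0.880 TPM in the tumours other than GKO tumour 2, which had 2.47 TPM (100 reads). Gpnmb, a glycoprotein of lysosome-rich macrophages (ENSMUSG00000029816, chr6:49036546-49070929 on the plus strand), had under 4 reads in 8 of the 18 samples and was highest in the same tumour, at 2.55 TPM (136 reads), followed by WT tumour 2 at 0.766 TPM and WT non-tumour 2 at 0.658 TPM. Ccr2, the receptor that draws monocytes from blood (ENSMUSG00000049103, chr9:124101950-124113557 on the plus strand), had 0.153 to 0.416 TPM in normal livers, 0.247 to 0.576 TPM in non-tumours and 0.218 to 0.959 TPM in tumours, or 7 to 53 reads. None of these 3 genes passed between tumours and non-tumours at this depth. Trem2 differed by 0.22 over both genotypes (standard error 0.25, limma adjusted p 0.563), and Gpnmb and Ccr2, which passed the minimum in few comparisons, by 0.40 and 0.23 in a limma fit without the minimum (adjusted p 0.473 and 0.309).

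**Figure D3:**
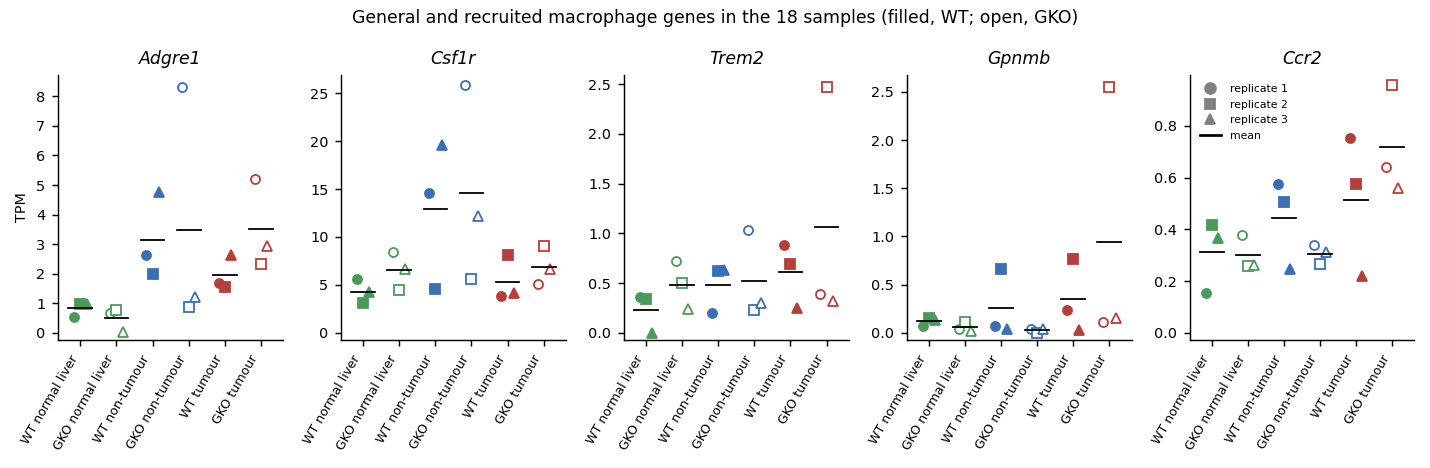
TPM on linear axes for the 5 general or recruited macrophage genes in each sample, drawn as for the Kupffer genes. Adgre1 was above 1.5 TPM in all tumours and under 1 TPM in all normal livers, and GKO tumour 2 alone passed 2 TPM of Trem2 and Gpnmb.

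Clec4f was also set against Csf1r in the same sample, both in TPM. The TPM of Clec4f was 5.28 to 12.0 times that of Csf1r in the 6 normal livers, 5.15 to 9.95 times in 5 of the non-tumours and 1.29 times in WT non-tumour 2. In tumours the ratio was 0.737, 1.20 and 2.27 in WT and 0.233, 4.20 and 1.28 in GKO. Every tumour lay under every normal liver and under every non-tumour but that one. Clec4f was also a smaller part of the summed TPM of the 5 Kupffer genes in tumours, 19.1% to 42.0%, than in normal livers, 37.6% to 58.0%, with 28.6% in WT non-tumour 2 and 36.9% to 58.3% in the other non-tumours. These ratios are descriptions and were not tested. The r of log2(TPM + 1) over the 18 samples was 0.645 to 0.845 between Csf1r and the 5 Kupffer genes (0.633 to 0.831 over 16 samples), but -0.081 to 0.301 for Adgre1 (-0.402 to 0.159 over 16 samples). After subtraction of the group means it was 0.767 to 0.914 for Csf1r and 0.222 to 0.521 for Adgre1.

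**Figure D4:**
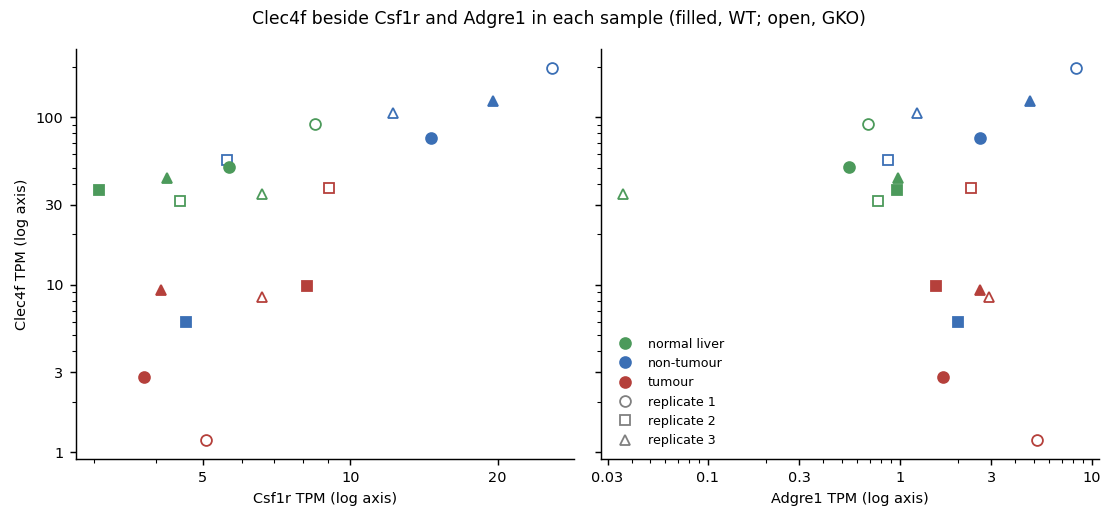
Clec4f TPM against Csf1r TPM (left) and Adgre1 TPM (right) in each sample, both axes logarithmic (colours by tissue; filled, WT; open, GKO; marker shape, replicate). At equal Csf1r the tumours and WT non-tumour 2 lie below the normal livers and the other non-tumours.

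Livers after DEN were compared with untreated livers to see whether the macrophage genes had changed outside the tumours. Over both genotypes none of 7 genes passed limma's test, where 0.4% of 13488 genes did (52 higher and 2 lower), and 2 had an unadjusted p under 0.05, where 20.8% of genes did. These were Adgre1, higher by 1.17 (standard error 0.35, adjusted p 0.128, exact permutation p 0.005), and Csf1r, higher by 1.04 (0.36, adjusted p 0.161, exact p 0.045). All 7 estimates were positive, with a median of 1.04, beside 0.21 over all genes tested. With median centring 0 of the 2 genes that passed were higher, with quantile normalization 1 of 3, and voom on the recovered reads called none of the macrophage genes. Without GKO non-tumour 2, Adgre1 (1.36, limma adjusted p 0.0453) and Csf1r (1.28, adjusted p 0.0466) passed. The Kupffer genes had estimates between 0.52 for Clec4f and 1.20 for Marco (standard errors 0.47 to 0.79). Without WT non-tumour 2 the estimates were 1.15 for Clec4f, 1.21 for Timd4, 1.41 for Vsig4, 1.61 for Cd5l and 1.77 for Marco, with limma adjusted p-values of 0.108 to 0.204, so that none passed.

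Within WT, none of 7 genes passed (0.00744% of 13440 genes did), and Adgre1, at 1.13 (standard error 0.28), and Csf1r, at 1.23 (0.48), had an unadjusted p under 0.05, as did 24.4% of genes. Adgre1 did not overlap between these groups, as for 33.9% of genes. The estimate for Clec4f was -0.12 (standard error 0.98) and 1.15 without WT non-tumour 2, neither passing, and the median over all genes tested was 0.33. Within GKO, none of 8 passed (0% of 13530 genes), and Marco, at 1.94 (0.83), had an unadjusted p under 0.05, as did 5.2% of genes. Adgre1, at 1.22 (0.58), did not overlap, as for 8.73% of genes. In the interaction of genotype with DEN none of 7 genes passed at either level (0% and 6.15% of 13488 genes), and the estimate for Clec4f, 1.28 (standard error 1.24), was 0.01 without WT non-tumour 2.

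Whether the deletion of miR-181ab1 changed the macrophage genes was tested in each tissue and over all 3. No macrophage gene passed limma's test and none had an unadjusted p under 0.05 in any of these comparisons. The corresponding shares of all genes were 0.0215% and 8.87% of 13964 in tumours (3 genes at the adjusted level, and 0 with the replicate number as a block), 0% and 5.8% of 13768 in non-tumours, 0% and 3.96% of 13099 in normal livers and 0% and 7.09% of 13914 over the 3 tissues. Voom on recovered reads gave 0 macrophage genes in all of them. Over the 3 tissues, GKO exceeded WT by 0.61 for Clec4f (standard error 0.56), 0.46 for Vsig4 (0.40), 0.36 for Timd4 (0.36), 0.32 for Csf1r (0.27), 0.13 for Marco (0.58), 0.09 for Cd5l (0.52) and 0.01 for Adgre1 (0.27). The exact permutation p over 8000 relabellings within tissue ranged from 0.286 for Csf1r to 0.994 for Gpnmb. Without WT non-tumour 2 the estimates were 0.19 for Clec4f, 0.20 for Vsig4, 0.07 for Timd4, 0.18 for Csf1r, -0.24 for Marco, -0.23 for Cd5l and -0.03 for Adgre1.

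Timd4 differed between GKO and WT by -0.03 (standard error 0.43) in tumours, 0.84 (0.78) in non-tumours and 0.26 (0.42) in normal livers, with limma adjusted p-values of 0.992, 0.679 and 0.999. The largest estimate between non-tumours of the 2 genotypes, 1.39 for Clec4f (standard error 1.07), was 0.12 without WT non-tumour 2, and those of Timd4, Marco and Vsig4 were then -0.03, -0.15 and -0.15. In tumours the estimates of the Kupffer genes lay between -0.06 for Vsig4 and 0.31 for Clec4f, with standard errors of 0.43 to 1.00. Their direction turned with single tumours left out, Clec4f being at -0.72 without GKO tumour 2 and 1.36 without GKO tumour 1, and Cd5l at -0.75 and 0.84. In the same comparison Adgre1 was at 0.58 (0.29, adjusted p 0.614).

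Genes around the macrophage markers were counted from lists of cell type genes, for tumours against non-tumours over both genotypes, where 12.2% of all genes rose and 7.87% fell. Of 8 other genes of Kupffer cell identity, 2 fell, the iron exporter Slc40a1 (-1.57, standard error 0.38, limma adjusted p 0.0143) and the haemoglobin scavenger receptor Cd163 (-1.21, 0.36, adjusted p 0.0326), and none rose, with a list median of -0.80. Of 16 other general macrophage genes, Cd14 rose (3.67, 0.43, adjusted p 0.00019), as did Mpeg1 (1.76, 0.28, adjusted p 0.0013), and Mertk fell (-1.02, 0.17, adjusted p 0.0017). The median of these 16 was -0.415, and Cd68 and C1qa had differences of -0.21 and -0.83. Cd14, a receptor for bacterial lipopolysaccharide, is also made by hepatocytes.

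Of 11 genes known from lipid-associated macrophages, 5 rose and none fell, with a median of 0.82. They were Cd63 (4.79), Fabp5 (3.93), Lpl (2.12), Ctsd (0.82) and Itgax (0.69), of which Cd63 and Ctsd encode lysosomal proteins found in most cells and Fabp5 and Lpl lipid-handling proteins that tumour cells can also make. Spp1 and Cd9, of the same list, had differences of 0.97 (standard error 0.85, adjusted p 0.441) and 1.57 (0.57, adjusted p 0.0702). The 3 ligands of CSF1R and CCR2 tested, Csf1, Il34 and Ccl2, had differences of -0.16, 0.56 and -0.11, none of which passed. No gene passed among 4 of monocytes, 4 of neutrophils, 4 of dendritic cells, 4 of T cells and 3 of B cells, with list medians of 0.25, -0.05, 0.13, -0.28 and -0.47.

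Without WT non-tumour 2, a setting added for these lists after the data were seen, 17.1% of 14134 genes rose and 9.73% fell. That library was low in the Kupffer, stellate, B cell, neutrophil and dendritic cell lists. Further falls of their genes in tumours without it follow from its choice and are no separate support. Of the other Kupffer identity genes, 4 of 8 then fell, with Clec1b (-1.17) and Folr2 (-0.83) beside Slc40a1 and Cd163, and the list median was -0.999. Of the B cell genes, Cd79b (-0.75) fell, as did Retnlg (-0.88) of 4 neutrophil genes and Clec9a (-0.71) of 4 dendritic cell genes, and none of the monocyte or T cell genes passed. Aif1 (-1.12) of the general macrophage genes and Colec11 (-1.03) of the stellate cell genes joined those that fell, and Mmp12 (0.70) joined the lipid-associated genes that rose.

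Of 6 stellate cell genes, which mark neighbours of Kupffer cells in the sinusoid wall, Dcn (-1.81) and Lrat (-0.93) fell, with a list median of -0.719. Of 8 sinusoidal endothelial genes, Pecam1 (1.29) and Kdr (0.76) rose. The endothelial list as a whole did not rise, with 4 estimates higher, 4 lower and a median of 0.018 (-0.183 without WT non-tumour 2). Of 5 hepatocyte genes, Alb (1.70), Apoa1 (1.34) and Serpina1a (1.38) rose, while the estimates of the other 2, Ttr and Cps1, were lower and did not pass. Stellate cell genes summed to 21.4 to 85.3 TPM in tumours, under the 92.1 to 146 TPM of every non-tumour but WT non-tumour 2 (32.2 TPM), and general macrophage genes to 406 to 855 TPM in tumours and 330 to 1261 TPM in non-tumours. The part that other cells, or the larger summed TPM of these hepatocyte genes in tumours, has in the values of the Kupffer genes was not tested.

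**Figure D5:**
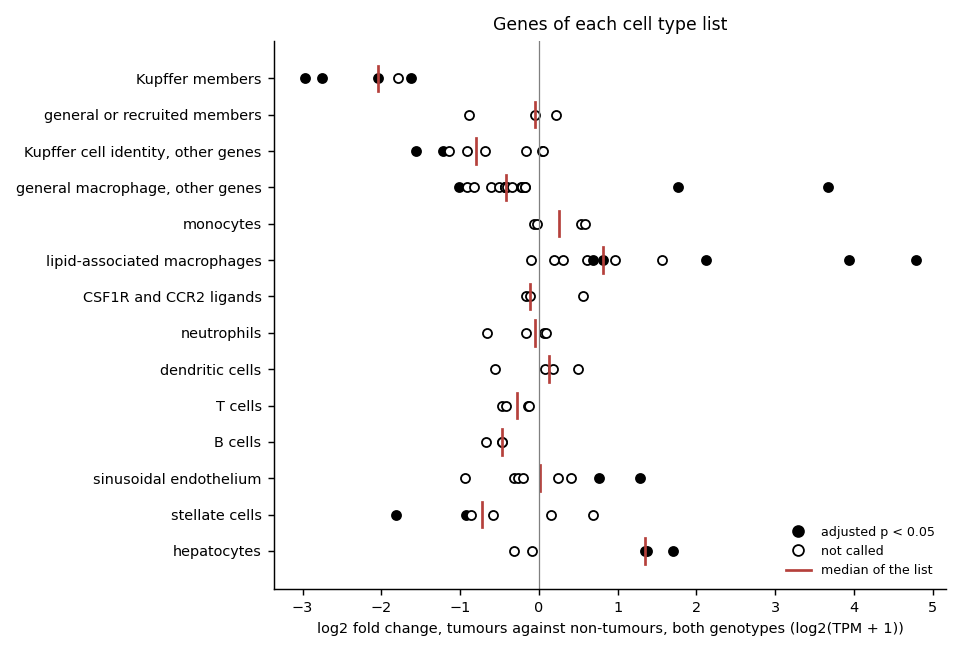
Log2 fold change on log2(TPM + 1) of tumours against non-tumours over both genotypes for every tested gene of each cell type list (filled, adjusted p under 0.05; open, not called; red line, median of the list). The 5 Kupffer genes have the lowest median of these lists, -2.05, and the other general macrophage genes a median of -0.415.

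The genes of the whole table whose log2(TPM + 1) was most like the mean of the 5 Kupffer genes over the 18 samples, each gene scaled to mean 0 and SD 1, were Clec1b (r 0.96), Cfp (0.938) and Fabp7 (0.936). Clec1b, a lectin receptor of the Kupffer identity list, was also first with Spearman's rho, with a pseudocount of 0.1 and after subtraction of the group means. For single genes the closest were Fcna for Clec4f (0.977), followed by Pmm1 (0.937) and Timd4 (0.929), Timd4 for Vsig4 (0.95), followed by Fabp7 (0.929) and Cd5l (0.926), and Fabp7 for Timd4 (0.959), followed by Cfp (0.956) and Vsig4 (0.95). Cd5l was closest to Vsig4 (0.926), Timd4 (0.912) and Clec1b (0.91), and Marco to Clec1b (0.92), Cfp (0.907) and Timd4 (0.899). Fcna lies opposite the annotated gene Fcnaos, so that reads of both may be mixed. The genes closest to Csf1r were Slc15a3 (0.92), C1qa (0.902) and Nfam1 (0.901), those closest to Adgre1 were Pld4 (0.897), Smug1 (0.854) and Tbc1d13 (0.852), and those closest to Trem2 were Plpp7 (0.834), Clec7a (0.834) and Pla2g7 (0.8). No Kupffer gene was among the 3 closest to Csf1r, Adgre1 or Trem2, and Gpnmb and Ccr2 were under the minimum of 0.5 TPM.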

How the data were processed

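Total RNA libraries of 18 samples were used. Per the labels' processing notes, the authors used STAR 2.7.3a on mm10, counted by featureCounts 2.0.0 (Subread), and deposited TPM. Gene lengths of GENCODE vM21 returned reads, 97.95% to 98.67% of values up to 30 reads being whole within 0.02. TPM keep no total RNA, so a rise of abundant genes lowers others.

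Values were compared as log2(TPM + 1) with limma 3.58.1 (R 4.3.3, eBayes with trend) on genes whose mean reached 0.5 TPM in each comparison's own samples, with Benjamini-Hochberg adjusted p under 0.05, tested on simulated data. Exact permutation tests (2-sided) served single genes. Recovered reads entered voom as an alternative, since the deposited unit is TPM. The genes named are the 10 macrophage genes, examples from each list, first those with the largest changes that passed (otherwise Cd68, C1qa, Csf1, Il34, Ccl2, Spp1 and Cd9) and the 3 genes of highest r. Members and lists were chosen with earlier results of these data known. Whether replicate numbers pair samples could not be told from the correlations of same-numbered deviations (-0.315 to 0.249). All 3 were positive for GKO with WT tumours (0.101, 0.12 and 0.197) and for GKO tumours with GKO non-tumours (0.124, 0.069 and 0.041). A block by number in the first comparison changed no call of a macrophage gene and left 0 of the 3 genes called in all. In the second it took the macrophage genes called from 2 to 0. A listed 0 allows up to 3 reads, for counting error only. A search for miRNA target sites is not reported here.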

Additional observations from a re-analysis of the deposited data

How the results depend on the processing

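The number of macrophage genes that passed in tumours against non-tumours over both genotypes, 4, was 1 without the minimum on low values and 3 with a pseudocount of 0.1, with voom and with a replicate block (Timd4 was lost in these 3), and ranged from 1 to 6 as single libraries were left out. In GKO alone, 2 genes became 0 without the minimum, 1 with a pseudocount of 0.1, and 4 with all 18 samples in 1 fit, with median centring, with quantile normalization and with voom, and 0 to 4 without single libraries. In WT alone, 0 genes became 4 without WT non-tumour 2 and stayed 0 without each other library. In non-tumours against normal livers, 0 became 2 without GKO non-tumour 2. Averaging WT tumours 1 and 2 as 1 sample changed no count. In the other 8 comparisons the count was 0 under all alternatives run. The correlations could not settle whether the replicate number pairs samples. With it as a block, the GKO count was 0 (limma adjusted p 0.0547 for Marco and 0.076 for Timd4) and the count over both genotypes 3. No other count of macrophage genes moved. Of 1714 single-gene values under alternatives, 31 lost and 19 gained significance, and 103 changed sign with no fit calling them, 19 of these in GKO against WT tumours and 19 in GKO against WT over the 3 tissues. No called difference changed sign. Of the 3 genes closest to the Kupffer mean, 2 stayed with a pseudocount of 0.1 and within groups, and 3 with Spearman's rho. Depth limits Trem2, Gpnmb and Ccr2, and in tumours Timd4 and Marco, to few reads.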
